A study of Homo sapiens with 3 samples.

Results

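Distal H4K12la peaks found only in Caki-1 were the peaks of histone H4 lysine 12 lactylation that both Caki-1 libraries held, that 786-O lacked, and that lay away from protein-coding genes' ends. They were taken from the peak list of Caki-1 replicate 1 on chromosomes 1 to 22. A member had a summit signal at or above that list's median of 21, overlapped a peak of Caki-1 replicate 2 by at least 1 bp, overlapped no 786-O peak, and lay more than 5 kb from both ends of every protein-coding gene in the RefSeq annotation. The members were thus selected on measured values, the peak calls of all 3 libraries and the replicate 1 signal. This gave 6315 members out of 60760 peaks in that list and 191376 peaks in the 3 lists together. Their presence in Caki-1 and absence from 786-O are therefore no finding of their own.

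The study mapped H4K12la by CUT&Tag, in which an antibody against the mark directs a transposase to chromatin and the tagged DNA is sequenced. The groups were untreated Caki-1 cells (replicates 1 and 2), a human renal cancer line from a metastasis that keeps a functional VHL gene, and untreated 786-O cells (replicate 2), a human renal cancer line from a primary tumour that lacks one. The other 786-O replicate was not analysed here. The series title names the question, which genes H4K12la marks in clear cell renal cell carcinoma cells.

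Histone lactylation is the addition of a lactyl group, derived from the lactate that glycolysis makes, to lysines of the histone tails. Like acetylation it marks open chromatin at promoters and at enhancers, which are distal elements that can act on a gene from far away and often lie in its introns or between genes. Distal elements differ more between cell types than promoters do, so those that carry a mark in a single line are used to describe what sets that line's chromatin apart.

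The lists held 60760 peaks in Caki-1 replicate 1 and 67839 in Caki-1 replicate 2, against 62777 in 786-O, and they covered 36.5 and 45.2 Mb against 36.4 Mb. Per the values, the strength column was a summit signal in Caki-1 replicate 1 and in 786-O, and a score on another scale in Caki-1 replicate 2, with medians of 21 and 48 in the Caki-1 lists. The values are the authors' own per peak, are not scaled between libraries, and were used only within a list. Read depths are not given in the sources used for this text, so a peak missing from a list may lie below its detection limit. Nothing in the labels states whether the Caki-1 replicates were separate cultures, and the spread between them may be technical. With 2 Caki-1 libraries and 1 786-O library there are 3 labelings and a smallest exact p of 0.333, so no test between the lines was made. In such bulk libraries, fewer cells with the mark and less of the mark per cell cannot be told apart.

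Some members lay on transcription starts that are not at the outer ends of a protein-coding gene model: inner starts of the gene, or starts of long non-coding RNAs (lncRNAs). 4 of these are shown because they carried high values in both Caki-1 libraries or belong to genes described below. HIP1 and GALNT2 were named by rank or by member count, DNAH17-AS1 lies under a top-ranked member, and MIR29B2CHG was chosen after its values were seen. Each sequence is the window of 250 bases before to 50 after the start, 300 in all, from RefSeq on GRCh38.p14, read 5′ to 3′ on the strand of the gene. Capitals mark CpG dinucleotides, the sites of DNA methylation that are dense at CpG-island promoters.
HIP1, chr7:75611767-75612066, minus strand: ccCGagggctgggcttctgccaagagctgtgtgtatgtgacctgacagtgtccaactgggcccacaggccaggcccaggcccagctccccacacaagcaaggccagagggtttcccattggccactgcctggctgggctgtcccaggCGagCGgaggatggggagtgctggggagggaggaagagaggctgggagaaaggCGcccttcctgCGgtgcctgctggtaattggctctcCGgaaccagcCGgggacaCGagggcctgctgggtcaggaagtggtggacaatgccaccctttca
GALNT2, chr1:230066988-230067287, plus strand: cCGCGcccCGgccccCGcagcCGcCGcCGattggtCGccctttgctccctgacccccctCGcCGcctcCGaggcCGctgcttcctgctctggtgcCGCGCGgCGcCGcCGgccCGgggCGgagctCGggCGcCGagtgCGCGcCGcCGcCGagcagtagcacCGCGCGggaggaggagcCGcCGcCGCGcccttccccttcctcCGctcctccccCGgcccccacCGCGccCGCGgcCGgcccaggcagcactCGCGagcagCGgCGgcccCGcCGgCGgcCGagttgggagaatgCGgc
DNAH17-AS1, chr17:78484660-78484959, plus strand: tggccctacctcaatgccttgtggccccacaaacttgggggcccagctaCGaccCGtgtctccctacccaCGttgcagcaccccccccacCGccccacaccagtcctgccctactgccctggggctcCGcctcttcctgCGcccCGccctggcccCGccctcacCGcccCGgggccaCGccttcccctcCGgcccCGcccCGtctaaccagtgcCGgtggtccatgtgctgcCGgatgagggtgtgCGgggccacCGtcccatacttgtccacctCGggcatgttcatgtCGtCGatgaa
MIR29B2CHG, chr1:207822654-207822953, minus strand: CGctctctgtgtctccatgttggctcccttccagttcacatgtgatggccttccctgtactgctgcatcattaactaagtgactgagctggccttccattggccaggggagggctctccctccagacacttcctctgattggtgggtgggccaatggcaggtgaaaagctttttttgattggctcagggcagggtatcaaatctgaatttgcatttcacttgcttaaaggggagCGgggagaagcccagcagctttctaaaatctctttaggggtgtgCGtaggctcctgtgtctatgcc

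The windows differed widely in CpG content. GALNT2 held 51 CpGs and DNAH17-AS1 21, whereas HIP1 held 8 and MIR29B2CHG 3. The member over the HIP1 start had a signal of 81 in Caki-1 replicate 1 and a score of 278 in replicate 2. The same values were 57 and 163 over the GALNT2 start, 78 and 320 over the DNAH17-AS1 start, and 90 and 215 over the MIR29B2CHG start. In 786-O no peak overlapped any of these members. HIP1 encodes a clathrin-binding endocytic adaptor, GALNT2 an enzyme that begins mucin-type O-glycosylation, and DNAH17-AS1 an antisense lncRNA of the dynein gene DNAH17. MIR29B2CHG is the host gene of miR-29b and miR-29c.

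MicroRNAs are short RNAs that repress messenger RNAs by pairing through their seed, bases 2 to 8, shown in capitals. 5 members overlapped a microRNA hairpin, and they were MIR9-2, MIR146A, MIR550A1 with its antisense partner MIR550B1, MIR6132 and MIR5093. The mature sequences of MIR9-2 and MIR146A and of the microRNAs of the MIR29B2CHG host are given because these are the best-studied of them. The table of sequences is RefSeq's on GRCh38.p14.
miR-9-5p: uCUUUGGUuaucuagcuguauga
miR-146a-5p: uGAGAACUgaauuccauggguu
miR-29b-3p: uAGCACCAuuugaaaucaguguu
miR-29c-3p: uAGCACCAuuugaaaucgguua

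miR-29b-3p and miR-29c-3p shared the seed AGCACCA, and their hairpins lay farther along the host gene than its marked start. miR-9, known for its part in neural development, came from a hairpin at chr5:88666853-88666939. The member over it (chr5:88666811-88667513) had a signal of 28 and a score of 71. miR-146a, known for damping NF-kB signalling, came from a hairpin at chr5:160485352-160485450. The member there (chr5:160485007-160485398) ended inside the hairpin, with a signal of 24 and a replicate 2 score of 42, under that list's median of 48. The share of members over a hairpin was 0.0854% (exact 95% CI 0.0277 to 0.199, of 5855 members off chromosome 8), against 0.167% (0.0938 to 0.276) of shared distal peaks and 0.0445% (0.00917 to 0.13) of distal peaks only in 786-O. These intervals overlap.

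The comparison sets were built in the same way. Shared distal peaks were the 9713 Caki-1 replicate 1 peaks that met every criterion except that they overlapped a 786-O peak. Distal peaks only in 786-O were the 7275 distal 786-O peaks at or above that list's median of 21 that overlapped no peak of either Caki-1 library, with no second 786-O library to require. Of the 16028 distal peaks found in both Caki-1 libraries, 39.4% (exact 95% CI 38.6 to 40.2) were absent from 786-O. Within 5 kb of a gene end, 1946 of 9989 such peaks were absent, or 19.5% (18.7 to 20.3). These shares describe the selection. All intervals of shares and medians here cover counting error over peaks only. Without Caki-1 replicate 2 the rule gave 9162 members, and without Caki-1 replicate 1, taking replicate 2 peaks at or above their own median, it gave 10514. Of the 6315 members, 4347 were overlapped by the set of 10514.

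At the edges of the rule the values changed little. The 582 members at the minimum signal of 21 had a median width of 526.5 bp and a median replicate 2 score of 54. The 664 candidates just below it, at 20, had a median width of 510 bp and a median score of 50. The member nearest to the distance limit lay 5010 bp from a gene end, in LGALS4, and the nearest candidate left out lay at 4996 bp. The members closest to a 786-O peak lay 4 bp from one, in PRMT3, NPAT and COG5.

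The measure that the rule did not use was the strength in Caki-1 replicate 2. Members ranked above the middle of that list but below the shared distal peaks. Their median score was 66 (65 to 67), against 92 (91 to 94) for shared distal peaks. As a percentile rank within the replicate 2 list, the median was 65.2 (64.7 to 65.8) for members and 77.9 (77.4 to 78.7) for shared distal peaks. 8.42% of members (7.75 to 9.14) and 23.2% of shared distal peaks (22.3 to 24.0) reached the 90th percentile of the list. At the other end, 1855 members (29.4%) and 1335 shared distal peaks (13.7%) ranked below the list's middle.

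Part of that gap went with the replicate 1 signal, whose median was 27 in members and 31 in shared distal peaks. At equal replicate 1 signal a gap remained. At signals of 21 to 25 the median score was 55 (54 to 57) in members and 66 (65 to 68) in shared distal peaks. At 26 to 30 it was 64 against 79, at 31 to 40 it was 75 against 99, and at 41 to 60 it was 114 (107 to 121) against 152 (147 to 156). Across peaks, the ranks in the 2 Caki-1 lists had a Spearman rho of 0.331 in members and 0.56 in shared distal peaks. These correlations are descriptions over peaks of the same 2 libraries, and peaks are not independent replicates. Replicate 1 signals ran up to 106 in members and up to 3742 in shared distal peaks, and rho depends on the range covered. The rho values therefore do not show which set is more reproducible.

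Members were also narrower. Their median width in Caki-1 replicate 1 was 572 bp (564 to 579), against 701 bp (693 to 708) for shared distal peaks. Distal peaks only in 786-O had a median of 480 bp (476 to 487) in their own list. Width is not independent of the rule, since a wide peak has more chance of touching a 786-O peak. The replicate 1 summit lay inside the replicate 2 peak for 93.4% of members and 97.0% of shared distal peaks, and 91.4% and 95.8% were covered over at least 50% of their length.

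**Figure D1:**
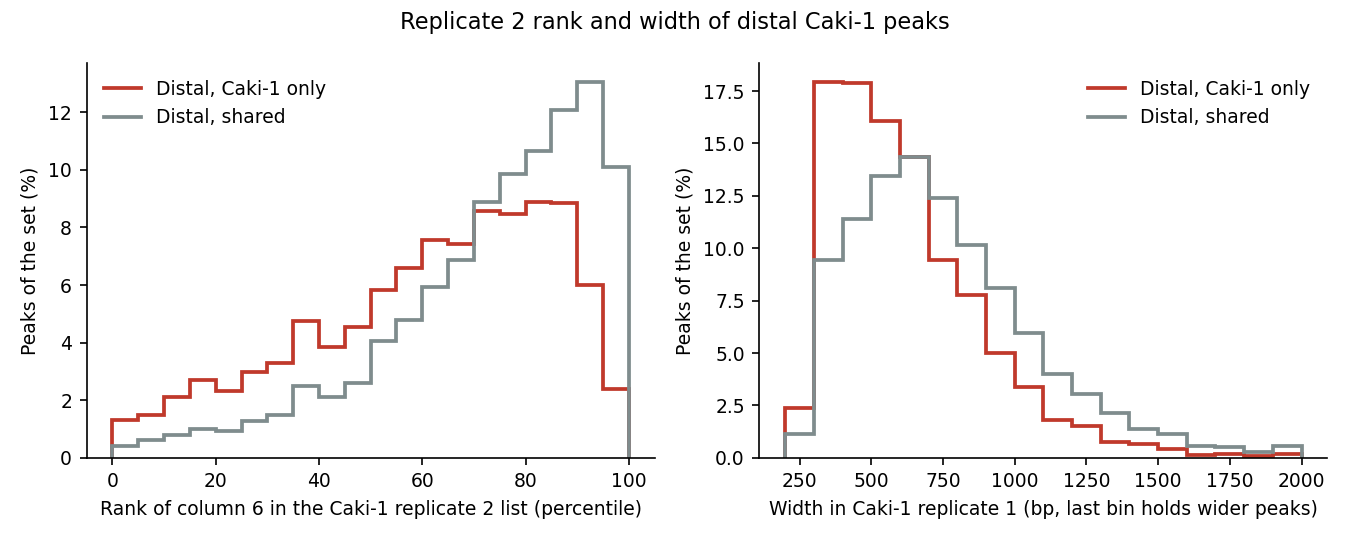
Percentile rank of each distal Caki-1 peak's strength in the Caki-1 replicate 2 list (left) and its width in Caki-1 replicate 1 in bp (right), as the percentage of each set per bin; red lines show the 6315 members and grey lines the 9713 shared distal peaks. The members' ranks spread over the whole list with a median of 65.2 and 29.4% below its middle, the shared peaks' ranks have a median of 77.9 and 13.7% below it, and the members' widths lie to the left.

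The strongest members were those with the highest value of their lower percentile rank over both Caki-1 lists. The first lay in PRKDC, the catalytic subunit of the DNA-dependent protein kinase of DNA end joining (chr8:47826433-47826963), with 97 as its signal and 348 as its score. UTP25, a factor of small ribosomal subunit assembly, held the next (chr1:209849828-209850789) at 78 and 346. UNK, an RNA-binding zinc-finger protein, held one of 81 and 309 (chr17:75814807-75815505). The nearest 786-O peaks lay 4.93 kb, 4.88 kb and 5.19 kb away from these members.

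PHF19, a Polycomb-like accessory subunit of PRC2, held a member of 73 and 331 (chr9:120868489-120869316). VPS35, a subunit of the retromer that sorts endosomal cargo, held one of 70 and 371 (chr16:46673486-46674164). ATP9B, a lipid flippase of the trans-Golgi network, held one of 68 and 303 (chr18:79245532-79245943), only 440 bp from a 786-O peak. DEPDC1B held one of 65 and 342 (chr5:60688187-60689036), 635 bp from a 786-O peak. MAP4K4, a Ste20-type kinase of stress signalling and cell migration, held one of 79 and 259 (chr2:101822860-101823686). Together with the members in HIP1 and DNAH17 shown above, 10 of the 15 strongest members lay inside a protein-coding gene.

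The other 5 lay outside protein-coding genes. One was 21.9 kb from CUL2, the cullin of the VHL ubiquitin ligase (chr10:34985610-34986687; 71 and 302). Another was 17.3 kb from GSE1 in an lncRNA gene (chr16:85151538-85152225; 69 and 305). A member on chromosome 2 (chr2:194745213-194746410) had 77 and 523 and lay 866.6 kb from SLC39A10, the nearest protein-coding gene. A narrow member of 350 bp in the immunoglobulin kappa region (chr2:89585610-89585959) had the highest replicate 2 score of all members, 853, with a signal of 74. The last lay on chromosome 9 (chr9:62838107-62838701; 65 and 409). The regions of the last 2 hold near-identical copies in the genome, and no source used here says how multiply mapping reads were treated.

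The widest members were not the strongest. A member of 2355 bp lay on chromosome 5 in an lncRNA gene, 323.7 kb from CDH10 (chr5:24161077-24163431; signal 40, score 141). FAT1, a large protocadherin, held one of 2322 bp (chr4:186641769-186644090; 34 and 106), 592 bp from a 786-O peak. RTF2, a replication fork factor, held one of 2090 bp (chr20:56511908-56513997; 37 and 128). The other two were 2236 bp on chromosome 21 and 2128 bp on chromosome 7, with signals of 31 and 25.

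Most members lay within genes. 72.5% (71.3 to 73.6) lay in a protein-coding gene, against 70.5% (69.6 to 71.5) of shared distal peaks and 66.1% (65.0 to 67.2) of distal peaks only in 786-O. A further 8.84% of members lay in an lncRNA gene alone and 17.8% (16.9 to 18.8) outside genes. The share outside genes was 17.7% of shared distal peaks and 22.6% (21.7 to 23.6) of distal peaks only in 786-O. The share of members in a gene was 60.1% without Caki-1 replicate 1 and 76.2% without Caki-1 replicate 2, a wider range than the gap between the sets. The gene table gives gene ends and no exons, so introns and exons were not separated. The median distance to a protein-coding gene's end was 31.9 kb for members, 30.4 kb for shared distal peaks and 34.3 kb for distal peaks only in 786-O, and 1171 members (18.5%) lay more than 100 kb from any.

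Inner starts and lncRNA starts were less common under members than under shared distal peaks. Off chromosome 8, whose starts were not analysed here, 234 of 5855 members overlapped a start window, or 4.0% (3.51 to 4.53). The share was 8.47% (7.91 to 9.07) of shared distal peaks and 2.39% (2.03 to 2.78) of distal peaks only in 786-O. The members' 283 windows belonged to 245 genes, with 155 at protein-coding genes and 128 at lncRNAs. The median CpG count was 14 at the protein-coding starts under members, against 21 at all protein-coding starts. At lncRNA starts it was 14 under members, against 5 at all lncRNA starts. All starts include those without a peak and those at the outer ends of protein-coding genes, which the rule keeps away from members. CpGs were not counted at starts under the comparison sets, so these contrasts do not show a trait particular to members.

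Motifs of transcription factors were searched in these windows on both strands, without allowance for mismatches. The AP-1 motif TGANTCA was in 9.19% of members' windows (6.09 to 13.2), against 7.68% of all windows. The TEAD motif GGAATG was in 13.8% and 14.1%, the HIF motif ACGTG in 18.4% and 21.3%, and the RUNX motif TGTGGT in 14.5% and 13.1%. The GATA motif AGATAA was in 5.65% (3.27 to 9.02) and 10.4%, and the HNF4 motif CAAAGTCCA was in 0 and 0.396%, where 0 of 283 allows a share of up to 1.3%. The forkhead motif TGTTTAC was in 3.18% and 3.44%, the ETS motif CAGGAAGT in 3.18% and 3.11%, and the NF-kB motif in 1.77% and 1.93%. None of these motifs contains another. For each of them except GATA, the interval held the share of all windows. Windows of the same gene can overlap, so they are not independent and these intervals are too narrow. No allowance was made for the number of motifs read. All windows include starts at gene ends and starts without a peak, and their median GC content was 58.7%, against 61.3% in members' windows. Motifs were not counted in windows under the comparison sets, so the lower GATA share is not shown to be particular to members. A match describes these letters and not a bound site.

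Members were spread unevenly over the chromosomes. Chromosome 1 held 981 members (15.5%), chromosome 2 held 805 and chromosome 5 held 577. Chromosomes 6, 14 and 22 held 41, 27 and 24. As a share of the distal peaks of Caki-1, members made up 52.2% (46.9 to 57.4) on chromosome 13, 47.2% (44.4 to 50.1) on chromosome 5 and 46.0% (43.9 to 48.2) on chromosome 1. They made up 15.5% (11.4 to 20.5) on chromosome 6, 20.9% (14.3 to 29.0) on chromosome 14 and 21.6% (14.4 to 30.4) on chromosome 22.

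These shares moved with the number of peaks of any kind that each line had on a chromosome. The ratio of all peaks in Caki-1 replicate 1 over all peaks in 786-O was 2.1 on chromosome 13, with 1611 against 766 peaks. It was 0.479 on chromosome 6, 0.437 on chromosome 14 and 0.503 on chromosome 22. The part of this overall difference in the count of members was not tested. Distal peaks only in 786-O showed the mirror image, with 30 on chromosome 13 and 619, 452 and 295 on chromosomes 6, 14 and 22.

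**Figure D2:**
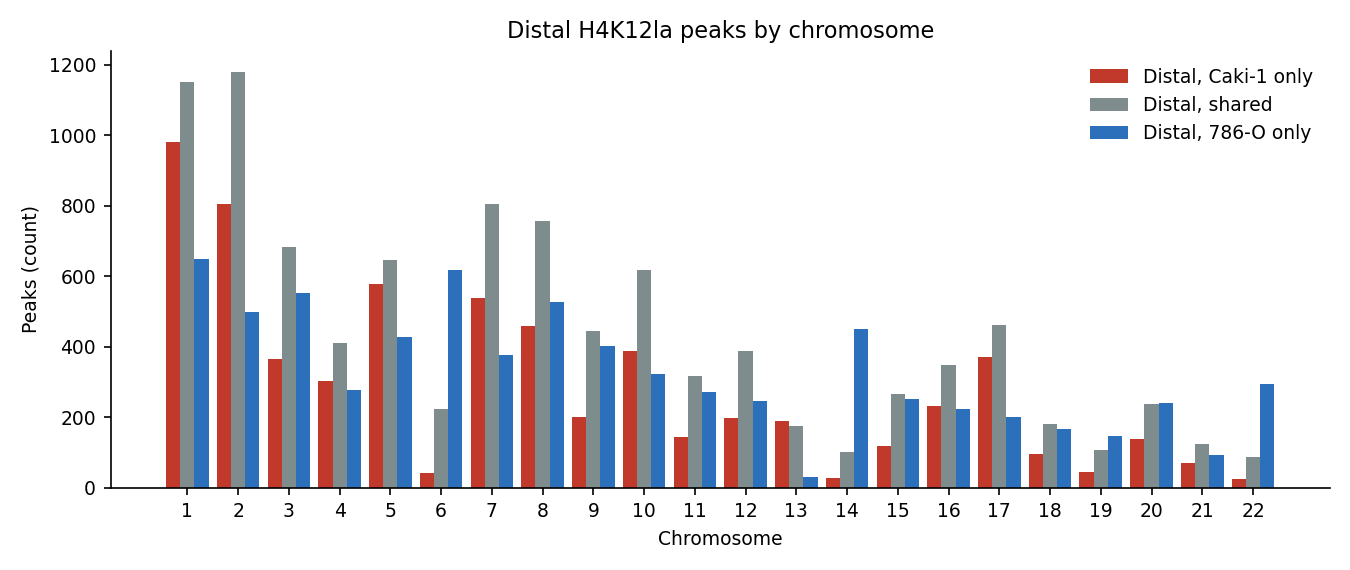
Number of distal peaks (vertical axis) per chromosome (horizontal axis), with Caki-1-only peaks in red, shared peaks in grey and 786-O-only peaks in blue. Members outnumber 786-O-only peaks on chromosome 1 (981 against 648) and chromosome 13 (191 against 30), and the order is the opposite on chromosome 6 (41 against 619).

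The unevenness continued within chromosomes. In 10 Mb bins with at least 30 distal Caki-1 peaks, members reached 75% (30 of 40; 58.8 to 87.3) at 80 to 90 Mb of chromosome 5 and 73.3% (54.1 to 87.7) at 50 to 60 Mb of chromosome 13. They fell to 6.67% (0.818 to 22.1) at 160 to 170 Mb of chromosome 6 and at 20 to 30 Mb of chromosome 22. In the bin at 180 to 190 Mb of chromosome 1, 91 of 137 were members, or 66.4% (57.9 to 74.3). In this bin Caki-1 replicate 1 had 430 peaks of any kind and 786-O had 175. The counts were 198 and 72 at 80 to 90 Mb of chromosome 5, and 134 and 239 at 160 to 170 Mb of chromosome 6. The part of these totals in the members' shares was not tested.

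Members seldom lay far from every 786-O peak. The median gap to the nearest 786-O peak was 9.03 kb (8.69 to 9.34), and 434 members (6.87%) had such a peak within 1 kb and 1878 (29.7%) within 5 kb. A total of 408 members (6.46%) had none within 100 kb, and 60 had none within 1000 kb. The farthest lay on chromosome 13 (chr13:56350891-56351351; signal 26, score 105), 3413 kb from a 786-O peak. A pair of neighbouring members in NCAM2, a neural adhesion molecule on chromosome 21, lay 3351 kb from the nearest, with signals of 30 and 26, and with scores of 141 and 62.

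177 stretches longer than 1 Mb held no 786-O peak of any kind, and 89 of them held 256 members (4.05%). The stretches below were chosen after their values were seen. The one with the most members ran over 4.98 Mb of chromosome 1 (187270106 to 192251874), with 36 members. It held 222 peaks in Caki-1 replicate 1 and 221 in replicate 2. Protein-coding genes that contain these members, or lie nearest at any distance, included BRINP3, PLA2G4A and RGS18. The next covered 1.74 Mb of chromosome 2 (153360811 to 155099876), with 13 members and, named in the same way, GALNT13 and KCNJ3. The third covered 1.03 Mb of chromosome 10 (128996652 to 130023195), with 11 members. The gene named in the same way was MGMT, which reverses alkylation damage of guanine.

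Few members formed dense runs. 23.3% (22.3 to 24.4) lay within 12500 bp of another member, against 28.3% (27.4 to 29.2) of shared distal peaks and 24.8% (23.8 to 25.8) of distal peaks only in 786-O, each within its own set. For members the share was 35.4% without Caki-1 replicate 2. The sets differ in size, and peaks of a larger set lie closer together by number alone. These shares therefore do not show which set is more clustered. Among members, 1473 formed 645 runs, of which 30 had 4 or more members. The longest run by count had 8 members over 52.8 kb at EPRS1, the glutamyl-prolyl-tRNA synthetase (chr1:219987164-220039943). Its signals ran from 31 to 61 and its scores from 29 to 148.

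Runs of 6 lay at RPS6KC1 (chr1:213097772-213136516), at NEIL3, a DNA glycosylase (chr4:177316029-177338356), at FMNL2, a formin (chr2:152473680-152508778), and at IPO11, a nuclear import receptor (chr5:62432145-62468325). The NEIL3 run had signals of 38, 33, 24, 37, 46 and 36 and held no 786-O peak of any kind. The RPS6KC1 run had scores of 39, 70, 70, 86, 143 and 74 and held 1 786-O peak. Runs of 5 lay, among others, at GALNT2, DDX60L, PTPN14 and COL4A1. The GALNT2 run (chr1:230185401-230211959) had signals of 53, 65, 57, 56 and 42. COL4A1 encodes a collagen of basement membranes, and its run (chr13:110221968-110255134) had signals of 30, 22, 23, 25 and 29.

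Each member was then given to the protein-coding gene or genes that contain it, or else to the nearest within 100 kb, and 537 members were given to none. Of 19126 autosomal protein-coding genes, 3184 were given at least 1 member, which is 16.6% of all genes. Shared distal peaks were given to 4444 genes (23.2%) and distal peaks only in 786-O to 3626 (19.0%). 3 or more members were given to 573 genes (3.0%), 3 or more shared distal peaks to 5.42% of all genes and 3 or more distal peaks only in 786-O to 3.61%. Longer genes were given more, from 4.16% of genes up to 20 kb to 45.2% of genes over 200 kb. Of the 3184 genes, 1964 (61.7%) were also given a shared distal peak. A total of 1162, or 36.5% of them and 32.0% of the 3626, were also given a distal peak only in 786-O.

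AGAP1, an Arf GTPase-activating protein of endosomal traffic, was given 20 members, 18 shared distal peaks and 4 peaks only in 786-O. Its members' signals ran from 22 to 45 with a median of 35, and their scores from 22 to 92. PTPRM, a receptor tyrosine phosphatase of cell contacts, was given 20 members, 22 shared and 4 only in 786-O. HDAC4, a class IIa histone deacetylase, was given 18, 7 and 1, with signals from 24 to 75. PRKCA, protein kinase C alpha, was given 18, 19 and 2.

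Of the next genes, those whose products act on actin or adhesion come together here. CDC42BPA, a kinase downstream of CDC42, was given 16 members, 9 shared distal peaks and no peak only in 786-O. ENAH, which extends actin filaments at the leading edge, was given 13, 5 and 1. FMNL2 was given 13, 10 and 2, and FMN2, an actin-nucleating formin, was given 12, 0 and 0. TNS3, a tensin of focal adhesions, was given 12, 17 and 5.

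GALNT2 was given 14 members, 8 shared distal peaks and no peak only in 786-O, with signals from 30 to 78 (median 51.5) and scores from 29 to 210. SND1, a Tudor-domain nuclease of RNA processing, was given 14, 9 and 4. CAST, the calpain inhibitor calpastatin, was given 13, 5 and 0. PRKDC was given 12, 11 and 3, with signals from 30 to 97 and scores from 43 to 348. KLHL29 was given 12, 4 and 5.

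Single libraries and the signal minimum moved several of these counts by more than 1.5 times. At the upper quartile of replicate 1 signal, CAST was given 1 member, CDC42BPA 4, FMNL2 7, TNS3 7, PTPRM 8, ENAH 8 and SND1 9, and with no minimum CAST was given 24. With no 786-O peak within 5 kb, PRKDC was given 5, TNS3 6, FMNL2 7, PTPRM 9, HDAC4 9 and AGAP1 13. Without Caki-1 replicate 2, PTPRM was given 34, PRKCA 29, SND1 28, TNS3 19 and KLHL29 19. Without Caki-1 replicate 1, HDAC4 was given 10, FMNL2 6 and SND1 5. FMN2 was given 14 members in either case and GALNT2 19 and 12. Among genes with 9 or more members, GALNT13, another O-glycosylation enzyme, MGMT and RGS7 shared with FMN2 that they were given no shared distal peak and no peak only in 786-O, with 12, 9 and 9 members. These 3 genes were chosen after their values were seen, and GALNT13 and MGMT lie at the stretches without 786-O peaks given above. FMN2 and RGS7 lie at 240 to 250 Mb of chromosome 1. Caki-1 replicate 1 had 395 peaks of any kind there, and 786-O had 181. At 220 to 230 Mb, with CDC42BPA and ENAH, the counts were 527 and 288. At 230 to 240 Mb, with GALNT2, they were 508 and 221. At 230 to 240 Mb of chromosome 2, with AGAP1 and HDAC4, they were 436 and 355. The regions' part in the genes' counts of members was not tested.

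**Figure D3:**
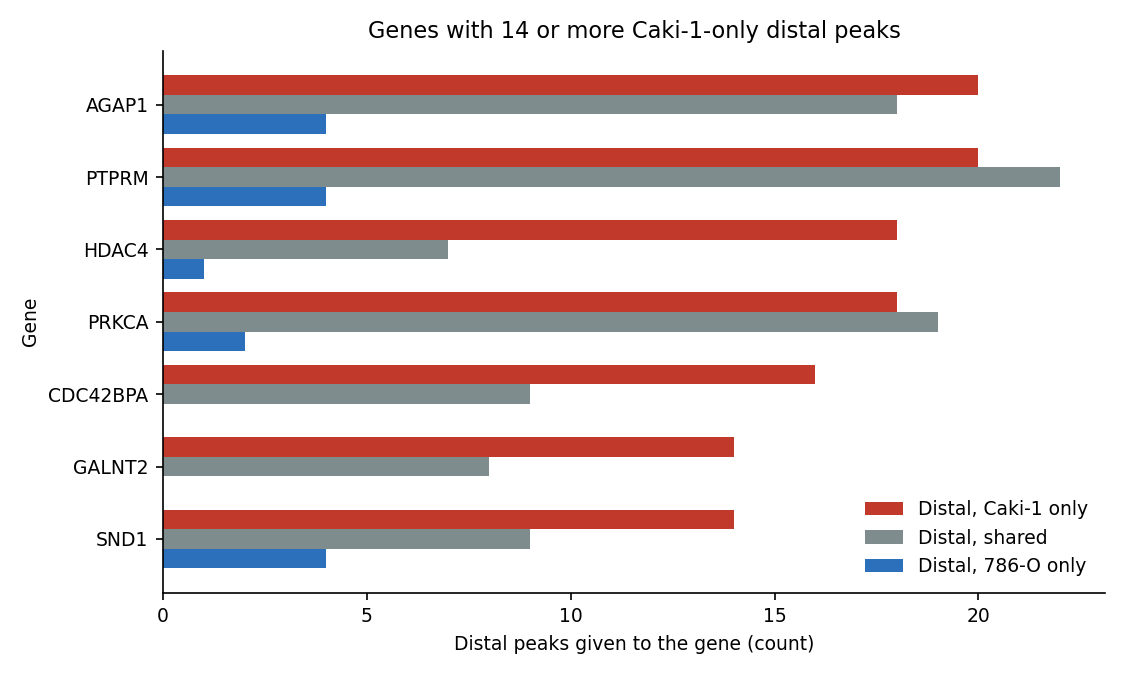
Number of distal peaks (horizontal axis) given to each gene with 14 or more members (vertical axis), with Caki-1-only peaks in red, shared peaks in grey and 786-O-only peaks in blue. AGAP1 and PTPRM have 20 members each, and CDC42BPA and GALNT2 have no bar in blue. The genes shown were chosen by their number of members, which favours longer red bars than blue ones.

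A measure outside the rule is the peak at the end of a gene, since members lie more than 5 kb from every gene end. A gene counted as having a gene-end peak in a library where a peak lay within 1 kb of either annotated end. Among the 3184 genes given a member, 351 had such a peak in both Caki-1 libraries but none in 786-O, or 11% (9.96 to 12.2). It was 6.33% (5.96 to 6.72) of the 15942 genes given none, and 1360 or 7.11% (6.75 to 7.48) of all 19126 genes. Genes given a shared distal peak had 9.14% (8.3 to 10) and genes given a distal peak only in 786-O had 6.56% (5.78 to 7.42).

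Most of that contrast went with gene-end peaks of any kind. Both Caki-1 libraries had a gene-end peak at 72.5% of genes given a member and 48% of genes given none, and no library had one at 16.7% and 37.2%. For genes given a shared distal peak these shares were 68.5% and 18.8%. Among the genes with a gene-end peak in both Caki-1 libraries, 786-O lacked one at 351 of 2307 genes given a member, or 15.2% (13.8 to 16.7), and at 1009 of 7645 genes given none, or 13.2% (12.4 to 14). It was 13.3% (12.2 to 14.6) for genes given a shared distal peak and 11.3% (9.98 to 12.7) for genes given a distal peak only in 786-O.

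The opposite pattern was less common at genes with members, and also at genes with shared distal peaks. A gene-end peak of 786-O that both Caki-1 libraries lacked was found at 2.17% (1.69 to 2.73) of genes given a member, 4.46% (4.14 to 4.79) of genes given none and 4.08% of all genes. It was found at 2.79% (2.33 to 3.32) of genes given a shared distal peak and at 4.69% (4.02 to 5.43) of genes given a distal peak only in 786-O. The intervals of genes with members and genes with shared distal peaks overlap. Most genes with members had gene-end peaks in all 3 libraries, 61.4% (59.7 to 63.1) of them, against 44.9% of all genes. It was 59.3% (57.9 to 60.8) for genes given a shared distal peak.

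The share did not climb steadily with the number of members. It was 6.33% at genes given 0, 11% (9.63 to 12.4) at genes given 1, 10.2% (7.9 to 13) at genes given 2 and 12% (9.49 to 15) at genes given 3 or more. Where 3 or more members came with no peak only in 786-O, it was 17% (48 of 282 genes; 12.8 to 21.9), and 20.9% (15.8 to 26.7) of those with a gene-end peak in both Caki-1 libraries. That group was chosen by 786-O peak calls, which can favour genes where 786-O had few peaks. It was not matched for gene length, and no group without members was chosen in the same way. Within each class of gene length the share of all genes was higher with members than without, at 9.04% against 5.82% up to 50 kb and 14.9% against 9.95% over 200 kb. Among genes with a gene-end peak in both Caki-1 libraries, however, the share that 786-O lacked was 12.6% with and 12.6% without members up to 50 kb, and 12.3% against 12.2% from 50 to 100 kb. It was 17.6% (14.4 to 21.3) against 15% (12.4 to 18) from 100 to 200 kb and 21.5% (17.7 to 25.8) against 22.8% (18.3 to 27.8) over 200 kb, so no gap beyond counting error remained within a length class. Within chromosomes the share of all genes was higher with members on 20 of 22, the exceptions being chromosomes 7 (7.72% against 7.95%) and 8 (8.22% against 8.87%). Some chromosomes rest on few genes, such as 1 of 21 on chromosome 22 and 2 of 21 on chromosome 14. The share among genes with a gene-end peak in both Caki-1 libraries was not computed by chromosome, so the 20 do not show a gap beyond gene-end peaks of any kind. Genes that share a region are not independent, and the region's part in these shares within a chromosome was not tested.

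The genes below with a gene-end peak in Caki-1 alone and many members were chosen after their values were seen. They were PRKCA (18 members), GALNT2 (14), FMN2 (12) and DOCK1, a Rac exchange factor (10). MGMT, RGS7 and TANC2 followed with 9 each and PIP4K2A with 8. GNA12, L3MBTL4, MAP4K4 and VEGFC, a lymphangiogenic growth factor, had 6 each. VEGFC members had signals from 21 to 36 and scores from 28 to 205, and it was given 3 shared distal peaks and no peak only in 786-O.

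**Figure D4:**
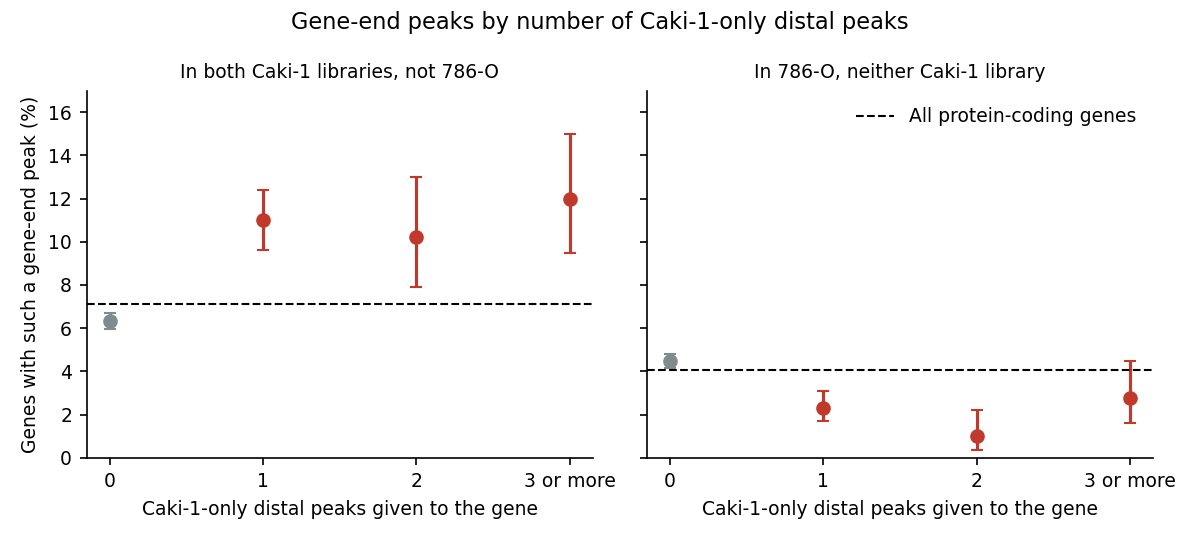
Percentage of protein-coding genes (vertical axis) with a gene-end peak that both Caki-1 libraries had and 786-O lacked (left) or that 786-O had and both Caki-1 libraries lacked (right), by the number of members given to the gene (horizontal axis); bars are exact 95% binomial intervals and dashed lines the share of all genes. On the left the genes with 1, 2 and 3 or more members lie at 11%, 10.2% and 12%, above the 6.33% of genes with 0, and on the right all 3 lie below the 4.46% of genes with 0.

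Gene lists were read against the 16.6% of all genes given at least 1 member. Receptor tyrosine kinases and their ligands, which start growth factor signalling, stood highest with 13 of 21 genes (61.9%), and 9 of 21 were given a distal peak only in 786-O (42.9%, against 19.0% of all genes). A shared distal peak was given to 16 of 21 (76.2%, against 23.2% of all genes). The genes of this list had a median length of 69.0 kb, against 24.5 kb for all genes. MET, the receptor of hepatocyte growth factor, was given 6 members, 5 shared distal peaks and no peak only in 786-O. The signals of the MET members were 32, 21, 28, 27, 33 and 30, and their scores were 53, 33, 77, 73, 45 and 22. The signals spread around the members' median of 27, and 3 of the 6 scores lay above the list median of 48.

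NRG1, a ligand of the ERBB receptors, was given 6, 5 and 0. The signals of the NRG1 members were 21, 26, 31, 33, 23 and 27, and their scores were 36, 102, 37, 47, 31 and 83. EGFR was given 4, 15 and 5, and the EGFR members had signals of 30, 40, 33 and 29. TGFA, a ligand of EGFR, and IGF1R, the receptor of insulin-like growth factors, were each given 3, 6 and 1. HGF, the ligand of MET, was given 1 member of signal 40 and score 70, together with 2 shared distal peaks. Gene ends of MET, EGFR, HGF and TGFA carried peaks in all 3 libraries, and those of NRG1 in none.

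Genes of TGF-beta and YAP signalling followed, with 8 of 20 given a member, and 13 of 20 without Caki-1 replicate 1. Of the 20, 15 (75%) were given a shared distal peak and 9 (45%) a distal peak only in 786-O. The list's median gene length was 52.7 kb, against 24.5 kb for all genes. TEAD1, the DNA-binding partner of YAP, was given 5, 10 and 3, and the TEAD1 members had signals of 35, 32, 25, 34 and 32. TGFB2, a TGF-beta ligand, was given 4, 6 and 1, and a member there (chr1:218380376-218380972) had 58 and 207. SMAD3, which carries the TGF-beta signal to the nucleus, was given 3, 2 and 5.

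Renal lineage factors, the transcription factors of kidney development, had 7 of 22 genes with a member (31.8%, against 16.6% of all genes). A shared distal peak was given to 10 of 22 (45.5%, against 23.2%) and a distal peak only in 786-O to 14 of 22 (63.6%, against 19.0%). The list's median gene length was 53.2 kb, against 24.5 kb for all genes. EYA1, a co-activator of the early kidney, was given 4, 0 and 2, with signals of 34, 27, 21 and 37 and scores of 146, 145, 63 and 270. PAX8, a factor of the renal lineage, was given 2, 3 and 1, with a signal of 29 at each and scores of 68 and 175. The gene ends of PAX8, EYA1 and TFAP2A carried a peak in each Caki-1 library but none in 786-O. Those of WT1, POU3F3, MAF and IRX3 carried one in 786-O but in neither Caki-1 library. Of the 22 genes, 8 had a gene-end peak in both Caki-1 libraries and 11 had one in 786-O. ESRRG was given 2, 6 and 1.

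Mesenchymal genes had 6 of 20 with a member (30%), 11 with a shared distal peak (55%) and 8 with a distal peak only in 786-O (40%). Epithelial genes had 5 of 18 (27.8%), 8 (44.4%) and 2 (11.1%). Of all genes it was 16.6%, 23.2% and 19.0%. The median gene lengths were 36.3 kb for mesenchymal and 20.2 kb for epithelial genes, against 24.5 kb for all genes. VIM, SPARC and COL5A2 were given 2 members each and no peak only in 786-O, and a SPARC member (chr5:151696452-151696967) had 55 and 191. The epithelial genes were the keratins KRT8 and KRT18, the polarity factor LLGL2, the splicing factor ESRP1 and the transcription factor GRHL2, with 1 member each. The cadherin genes CDH2, a mesenchymal gene named after its values were seen, and CDH6, from the tubule markers, were given no member. They had 10 and 9 peaks only in 786-O. AP-1 factors had 3 of 11 with a member (27.3%), 5 with a shared distal peak and 2 with a distal peak only in 786-O. The 3 with a member were FOSL2, ATF3 and BATF3, with signals of 27, 47 and 21.

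Genes of glycolysis and lactate handling, the pathway that supplies the lactyl group, had 6 of 23 with a member, 12 with a shared distal peak and 8 with a distal peak only in 786-O. PFKP, a phosphofructokinase, was given 4, 3 and 0, with signals of 26, 31, 28 and 32 and scores of 33, 86, 45 and 19. HK1, a hexokinase, was given 3, 7 and 0, with signals of 31, 30 and 29. PFKFB3, which makes the activator of phosphofructokinase, was given 2, 6 and 1. GPI, SLC2A3 and PKM were given 1 member each.

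Hypoxia genes had 3 of 22 with a member (13.6%, against 16.6% of all genes). A shared distal peak was given to 7 of 22 (31.8%, against 23.2%) and a distal peak only in 786-O to 11 of 22 (50%, against 19.0%). The 3 with a member were NDRG1 and P4HA1 with 2 members each and KDM3A with 1. Leaving out either Caki-1 replicate gave 5 of 22, and no signal minimum gave 8. NF-kB and inflammatory genes had 1 of 16 with a member (6.25%), RELB, and 3 of 16 without Caki-1 replicate 1. A shared distal peak was given to 3 of 16 (18.8%) and a distal peak only in 786-O to 6 of 16 (37.5%). Differences between the sets of a list were not tested.

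**Figure D5:**
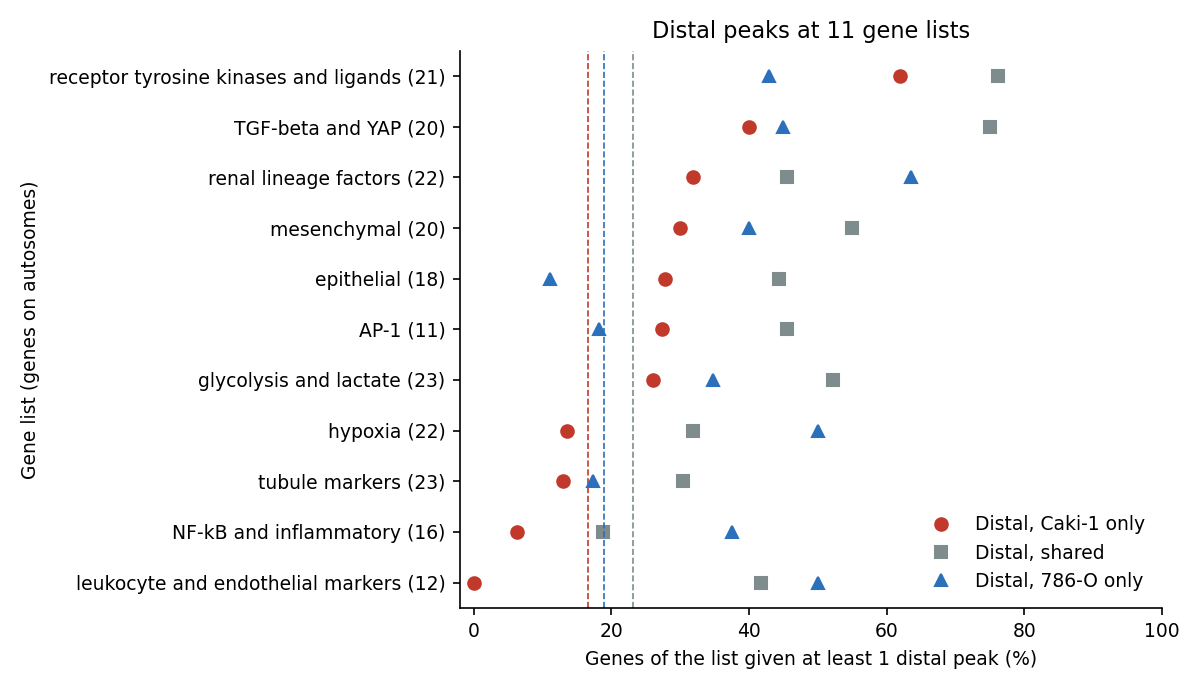
Percentage of each list's autosomal genes given at least 1 distal peak (horizontal axis) for 11 gene lists (vertical axis, number of genes in brackets), with Caki-1-only peaks as red circles, shared peaks as grey squares and 786-O-only peaks as blue triangles; dashed lines show the same for all protein-coding genes. Receptor tyrosine kinases and ligands reach 61.9% for members and 76.2% for shared peaks, against 16.6% and 23.2% of all genes. Hypoxia genes stand at 13.6% for members and 50% for 786-O-only peaks.

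Of 12 leukocyte and endothelial markers, 0 were given a member and 9 had no gene-end peak in any library, PTPRC, CD3E, LYZ, PECAM1 and VWF among them. A shared distal peak was given to 5 of the 12 (41.7%) and a distal peak only in 786-O to 6 (50%). The count given a member was 3 without Caki-1 replicate 1 and 2 without replicate 2. Tubule markers had 3 of 23 with a member (13%, against 16.6% of all genes), which were DPP4 and FBP1 with 2 each and ANPEP with 1. Without Caki-1 replicate 1 it was 5 of 23. A shared distal peak was given to 7 of 23 (30.4%, against 23.2% of all genes). A distal peak only in 786-O was given to 4 of 23 (17.4%, against 19.0%). Of the 23 tubule markers, 11 had no gene-end peak in any library and 6 had one in 786-O. Both Caki-1 libraries had one at 4 of them, which were GATM, PDZK1, ANPEP and DPP4. LRP2 had such a peak only in the replicate 2 library of Caki-1, and CUBN and HAVCR1 had none in any library. Gene ends of CDH6 carried a peak in Caki-1 replicate 2 and in 786-O, and those of VCAM1 in Caki-1 replicate 2.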

How the data were processed

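CUT&Tag for H4K12la on untreated cells of both lines was sequenced as paired ends, per the labels' protocols. Tools in the submitters' processing notes are Bowtie2, deepTools and fastp 0.19.6, with GRCh38 (hg38) as build and no roles. Peak caller, threshold and depth: not given in the sources used here. The deposited lists hold 1 library each and have no header. From the values, column 6 was read as the deposited summit signal in Caki-1 replicate 1 and 786-O and as a deposited score in Caki-1 replicate 2.

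Peaks were overlapped at 1 bp or more with numpy 2.4.6 and pandas 2.3.3, and the rule was checked on simulated peaks against a brute-force version. Gene positions are RefSeq's on GRCh38.p14, without strand. No genome was used here, so motifs were searched in start windows only. Intervals are 95% exact (Clopper-Pearson) for shares and order-statistic for medians (scipy 1.17.1). A named peak was among the 15 strongest by lower rank, the 5 widest or the 5 farthest from 786-O peaks, a named run among the 10 with the most members. A named gene was among the 15 with the most members, or in a list with at least 3 members or among that list's 3 highest; fixed cell type markers were named too, and any other gene was chosen after its values were seen. The members, lists and rules were chosen with earlier results of these data known. 9 alternatives were run. Some items that these rules name are not reported here.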

Additional observations from a re-analysis of the deposited data

How the results depend on the processing

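The number, width, rank, place and linking of members, the gene-end shares and the counts per list and per leading gene were recomputed under 9 alternatives; the shares by chromosome, bin, start window, hairpin, motif and gene length were not. The cause of the moves below was not tested unless the alternative's own construction shows it. With the upper quartile of replicate 1 signal as the minimum, there were 2434 members with a median width of 622 bp, a median replicate 2 rank of 74.8, 77.3% in a gene and 20.8% within 12500 bp of another. With no minimum, there were 13241, 519 bp, 54.2 and 62.2% in a gene. With 50% of the peak covered by replicate 2, the rank was 67.3 and the linked share 21.2%. With no 786-O peak within 1 kb, the linked share was 21.9%. With none within 5 kb, the values were 587 bp, 67.3, 69.4% and 18.3%. Measured over 5 kb from the ends of every annotated gene, 76.8% lay in a gene and 21.8% were linked. Leaving out each Caki-1 replicate gave 9162 to 10514 members, widths of 509 to 612 bp, 60.1% to 76.2% in a gene and 18.3% to 35.4% linked. The rank of 66.4 without replicate 1 belongs to replicate 2 peaks chosen at or above their own median, which sets it above 50. The share of genes with members that had a gene-end peak in both Caki-1 libraries but none in 786-O stayed between 10.7% and 11.6% over the 9 alternatives. Among genes with a gene-end peak in both Caki-1 libraries, the part without one in 786-O was 14.7% to 16.6%, alternatives chosen after seeing the data. So were those of the lists, whose counts of genes given a member ran from 9 to 14 (receptor tyrosine kinases and ligands), 5 to 13 (TGF-beta and YAP), 3 to 10 (renal lineage factors), 3 to 11 (mesenchymal), 2 to 9 (epithelial), 4 to 9 (glycolysis and lactate), 2 to 8 (hypoxia), 0 to 6 (NF-kB), 0 to 5 (tubule markers), 1 to 3 (AP-1) and 0 to 3 (leukocyte and endothelial). No paired analysis was possible because the lines share only replicate number 2 and no test was made. 786-O has 1 library here, so no value of that line has a replicate error, and unknown depth limits every statement of absence.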
